A study of Mus musculus with 8 samples.

Results

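The nuclear-encoded subunits of oxidative phosphorylation were examined in midbrain dopaminergic (mDA) neurons of newborn mice. Members were all probesets with a single gene symbol beginning with Nduf, Uqcr, Cox4 to Cox8 or Atp5, or equal to Sdha, Sdhb, Sdhc or Sdhd. This rule found 114 probesets for 89 genes among the 35512 probesets of the table. They comprised 34 genes of complex I, 4 of complex II, 8 of complex III, 19 of complex IV and 17 of ATP synthase, together with 7 assembly factors of complex I (Ndufaf1 to Ndufaf7), which the name rule also takes in. Ndufa4 and Ndufa4l2 were counted with complex IV, where Ndufa4 is now placed. Of the 89 genes, 83 exceeded a linear signal of 60 on all 8 arrays, which shows that they were detected but does not check their assignment to complexes. Cox7b2, Cox8b and Cox8c, isoforms known from testis or muscle, did not reach a mean of 60 in any group and were not tested, which left 111 probesets for 86 genes.

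Levels came from 8 Affymetrix Mouse Gene 1.0 ST arrays with 2 arrays in each of 4 groups. All pups were C57Bl/6 by the labels (C57Bl/6J in the methods of the study), aged P1-P4, and carried Th-EGFP+/-, a reporter driven by the promoter of tyrosine hydroxylase. SNc WT and VTA WT cells were Pitx3+/+, and SNc KO and VTA KO cells were Pitx3-/-. Live EGFP+ cells were sorted from dissected substantia nigra pars compacta (SNc) or ventral tegmental area (VTA), and stored batches were pooled into each sample. By the study's account, the SNc of Pitx3-/- pups keeps only its dorsal, Pitx3-negative neurons at birth, whereas the VTA still holds the neurons that would have expressed Pitx3. SNc KO against SNc WT therefore compares sets of cells as well as genotypes. Because arrays carry pooled cells, fewer cells of a type and less RNA per cell cannot be told apart. By the methods, RNA was purified in duplicate from each of the 4 cell preparations, and no source used here says whether the duplicates hold cells of different animals. The spread behind each p-value is therefore only that between these samples, and may be technical.

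Array medians lay between 6.11 and 6.24 on the log2 scale, and 55% to 58.9% of probesets exceeded a linear signal of 60. Pitx3 was at 7.72 and 7.63 in SNc WT, 7.87 and 7.94 in SNc KO, 8.10 and 7.84 in VTA WT and 8.08 and 7.92 in VTA KO. Its signal was not lower on the arrays labelled KO, and the sources used here do not say whether the probes lie in the deleted part, so it does not check the labels. All 10 general neuron markers and all 9 dopaminergic markers were over 60 on every array. The VTA KO arrays stood apart from each other, with a median SD of 0.169 over all tested probesets against 0.0982 to 0.104 in the other groups. Over the members that SD was 0.258 in VTA KO against 0.0514 to 0.0727 elsewhere, so each VTA KO result below is given with both arrays.

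Oxidative phosphorylation moves electrons from NADH (complex I) and succinate (complex II) through complexes III and IV to oxygen. The protons pumped along the way drive ATP synthase. A few core subunits of each complex carry the redox centres or catalytic sites, many small accessory subunits surround them, and some complex IV subunits have tissue-restricted isoforms. Inhibitors of complex I, such as rotenone and the active metabolite of MPTP, are well known to damage nigral dopaminergic neurons.

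Promoters of 73 of the 89 genes were found in RefSeq (GRCm38.p6), as 78 windows of 300 bases that begin 250 bases before the annotated start. The windows held a median of 19.5 CG dinucleotides, against 15 over the 19116 windows of genes with a single symbol on the array. Motifs of factors known to act on respiratory genes were searched on both strands, and were chosen after the expression values were known. The palindromic NRF1 motif, GCGCA followed directly by its reverse complement TGCGC, was in 7 of the 78 windows (8.97%), against 1.45% of windows of genes on the array and 0.971% of all 32851 windows in the table. The ETS motif CCGGAAG, or CTTCCGG when read on the other strand, is bound by GABP and was in 18 (23.1%), against 12.1% and 8.86%. The YY1 motif AAGATGG, or on the other strand CCATCTT, was in 10 (12.8%), against 6.23% and 6.34%. The TATA box, TATAAA or on the other strand TTTATA, was in 9 (11.5%), against 11.5% and 13.6%. A match is only a description of letters, and says nothing on binding in these neurons.

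The stretches shown are the 250 bases before the start, 5′ to 3′ on the strand of the gene, with matches to these 4 motifs in capitals. Cox6a1 (chr5:115348959-115349208, minus strand) holds an NRF1 match that begins 162 bases before the start, and an ETS match. Ndufb6 (chr4:40279422-40279671, minus strand), among the members that differed most between the VTA KO arrays, holds an ETS match 232 bases before its start. Cox7a2 (chr9:79759854-79760103, minus strand) and Cox7a1 (chr7:30183921-30184170, plus strand) are the common and muscle isoforms of one complex IV subunit, whose levels are compared below. Neither holds a match, and CG dinucleotides numbered 14 in the Cox7a2 stretch and 4 in that of Cox7a1.
Cox6a1: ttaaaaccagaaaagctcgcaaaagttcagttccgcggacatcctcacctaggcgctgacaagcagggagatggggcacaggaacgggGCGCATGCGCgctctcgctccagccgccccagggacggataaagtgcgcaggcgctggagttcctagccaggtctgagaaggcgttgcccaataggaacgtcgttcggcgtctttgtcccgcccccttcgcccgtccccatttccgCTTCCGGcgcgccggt
Ndufb6: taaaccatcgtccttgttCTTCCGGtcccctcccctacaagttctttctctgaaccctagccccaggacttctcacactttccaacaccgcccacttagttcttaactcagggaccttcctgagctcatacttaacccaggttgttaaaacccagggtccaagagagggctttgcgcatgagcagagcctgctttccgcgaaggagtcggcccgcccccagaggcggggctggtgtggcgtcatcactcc
Cox7a2: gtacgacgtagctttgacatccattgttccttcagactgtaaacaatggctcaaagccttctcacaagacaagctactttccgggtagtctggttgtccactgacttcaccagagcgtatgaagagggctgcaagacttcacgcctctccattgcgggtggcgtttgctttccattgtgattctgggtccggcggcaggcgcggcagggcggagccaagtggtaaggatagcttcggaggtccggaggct
Cox7a1: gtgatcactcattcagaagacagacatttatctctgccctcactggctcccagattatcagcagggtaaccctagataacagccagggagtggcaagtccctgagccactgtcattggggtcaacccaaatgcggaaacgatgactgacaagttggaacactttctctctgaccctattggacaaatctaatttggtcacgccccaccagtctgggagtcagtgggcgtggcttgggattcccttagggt

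No member passed limma's test (Benjamini-Hochberg adjusted p under 0.05 over all 22112 probesets tested) in any comparison. For SNc WT against VTA WT 0 of 111 member probesets were called, where 0.439% of all probesets were, and the lowest adjusted p of a member was 0.148. For SNc KO against SNc WT the count was 0 (background 0.149%, lowest adjusted p = 0.405 from limma). For VTA KO against VTA WT it was 0 (background 0.00904%, lowest 0.331), and for the mutant regions, SNc KO against VTA KO, a comparison added here, 0 (background 0.149%, lowest 0.156). The knockout effect in SNc minus that in VTA, an interaction, was also called for 0 members (background 0%, lowest 0.417). With 2 arrays a group, this does not show that the levels were equal.

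Levels on 1 array stood below the rest. VTA KO replicate 1 was the lowest of the 8 arrays for 64 of 86 member genes (74.4%), whereas it was lowest for 22.9% of all tested probesets. The median over members of the log2 level minus the mean of the gene over the 8 arrays was -0.333 there. On the other 7 arrays this median lay between -0.012 and 0.158. On VTA KO replicate 1 it was -0.450 for complex I, -0.410 for complex III, -0.338 for the assembly factors, -0.298 for complex IV and -0.225 for ATP synthase. Complex II did not share it, with a median of -0.052 on that array and -0.094 on VTA KO replicate 2.

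**Figure D1:**
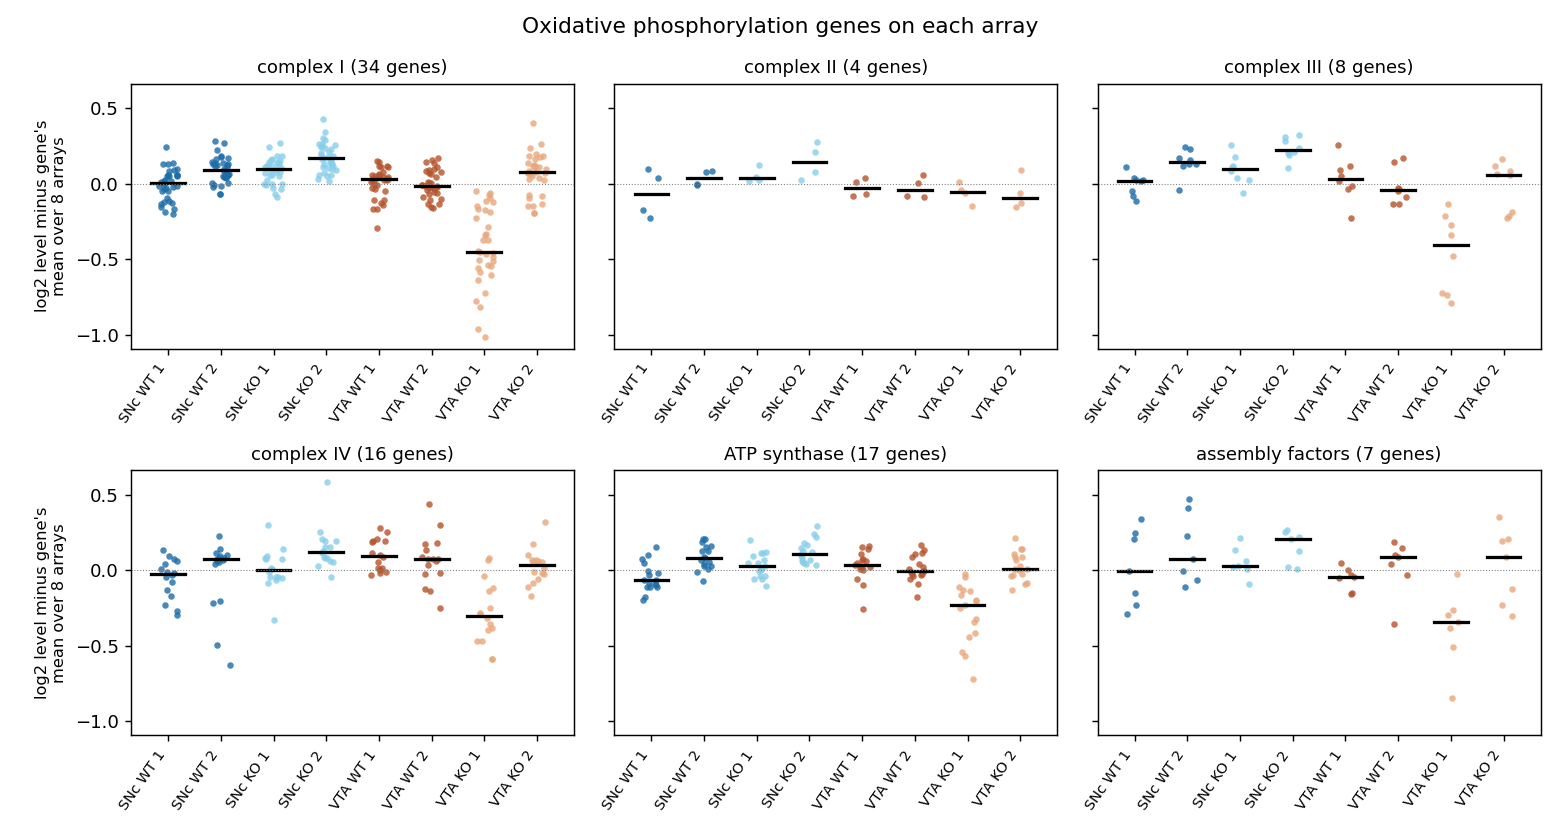
Each point is 1 gene (probeset of highest mean) on 1 array, plotted as its log2 level minus its mean over the 8 arrays, by complex, and black bars are medians. VTA KO replicate 1 has the lowest median in complex I (-0.450), complex III (-0.410), complex IV (-0.298), ATP synthase (-0.225) and the assembly factors (-0.338), but not in complex II.

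The arrays of a group were then compared directly within each functional role (roles assigned from textbook knowledge after values were known). Over all members, the median of VTA KO replicate 1 minus replicate 2 was -0.36, and 31 of 86 genes (36%) were lower by over 0.5 (11.7% of all tested probesets). The same median gap was -0.09 in SNc WT, -0.10 in SNc KO and 0.01 in VTA WT. Over all tested probesets it was -0.02, -0.01 and -0.00 for these groups, and 0.00 for VTA KO. Replicate 1 was the lower array for 87.2% of member genes with VTA KO (background 49.6%). This share was 76.7% for SNc WT (background 53.3%) and 86% for SNc KO (background 51.6%), but 44.2% for VTA WT (background 50.6%). The small subunits of complex III differed most in VTA KO, with a median gap of -0.85 over 5 genes, followed by the 28 accessory subunits of complex I (-0.63) and the 5 membrane accessory subunits of ATP synthase (-0.51). The 11 common subunits of complex IV were at -0.40 and the 4 of the peripheral stalk of ATP synthase at -0.30. The 7 assembly factors were at -0.43. Smaller median gaps were those of the 6 core subunits of complex I (-0.14), the c ring of ATP synthase (-0.13) and the tissue-restricted isoforms of complex IV (-0.11). The median gap was -0.06 for the core and Rieske proteins of complex III, -0.06 for the F1 head of ATP synthase and 0.06 for complex II.

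**Figure D2:**
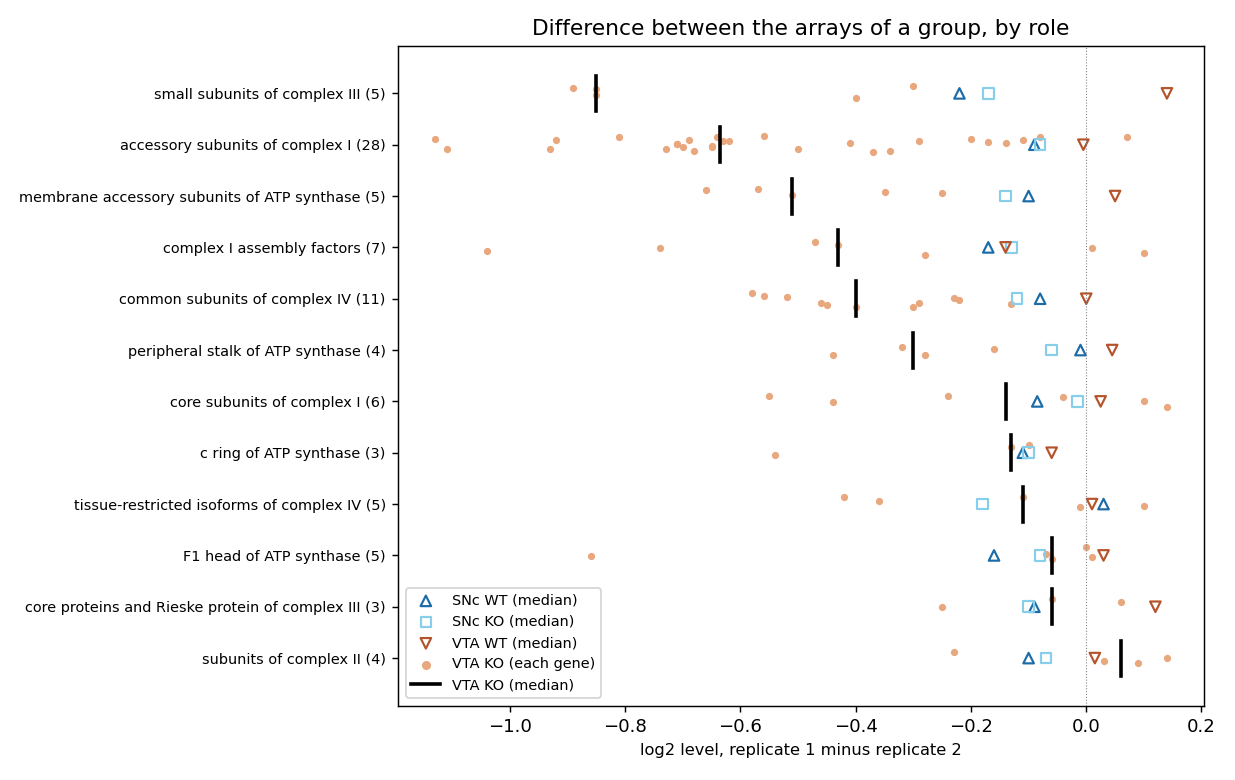
Orange points give, for each member gene, the log2 level on VTA KO replicate 1 minus replicate 2, by role (number of genes in brackets), with black bars at the medians, and open symbols give the medians of the same gap in the other groups. Medians in VTA KO run from -0.85 (small subunits of complex III) to 0.06 (complex II).

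Ndufa6, an accessory subunit of complex I, had the widest gap. It was at 8.76 and 8.81 in SNc WT, 8.86 and 8.94 in SNc KO, 8.82 and 8.75 in VTA WT, but at 7.66 and 8.79 in VTA KO. Thus 7 arrays lay close together and VTA KO replicate 1 alone stood below them. Ndufb6, of the membrane arm, followed the same course, at 10.45 and 10.56 in VTA WT and 9.43 and 10.53 in VTA KO, after 10.52 to 10.57 over the SNc arrays. Uqcr10, a small subunit of complex III, was at 8.96 and 8.81 in VTA WT and 8.05 and 8.90 in VTA KO. Among 28 accessory subunits of complex I, 28 were below both VTA WT arrays on VTA KO replicate 1, and 6 were on replicate 2. Such a position was held by 42.1% and 39.9% of all tested probesets.

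Several subunits of the catalytic parts differed little between the VTA KO arrays. Atp5a1, the alpha subunit of the F1 head, was at 10.19 and 10.27 in SNc WT, 10.15 and 10.27 in SNc KO, 10.21 and 10.18 in VTA WT and 10.18 and 10.18 in VTA KO. Atp5b, the catalytic beta subunit, lay between 11.18 and 11.29 on all arrays. Sdha, the flavoprotein of succinate dehydrogenase, was at 9.30 and 9.29 in SNc WT, 9.25 and 9.23 in SNc KO, 9.24 and 9.12 in VTA WT and 9.14 and 9.05 in VTA KO. Ndufs1, which carries iron-sulfur clusters in complex I, was at 9.17 and 9.09 in VTA WT and 9.13 and 8.99 in VTA KO. Ndufv1, the FMN subunit, was at 8.13 and 8.49 in SNc WT, 8.41 and 8.41 in SNc KO, 8.29 and 8.16 in VTA WT and 8.17 and 8.07 in VTA KO. These 5 genes had gaps of at most 0.14 in size between the VTA KO arrays, but other core subunits had wider ones. Ndufs7, an iron-sulfur subunit of complex I, was at 7.99 and 8.11 in VTA WT and 7.56 and 8.12 in VTA KO. Ndufv2, another iron-sulfur subunit, was at 9.85 and 9.75 and at 9.44 and 9.88. In the F1 head, the small epsilon subunit Atp5e was at 10.63 and 10.61 in VTA WT and at 9.76 and 10.62 in VTA KO, the widest gap among its 5 genes.

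Marker lists also differed between the VTA KO arrays. The summed linear signal of 12 pericyte and smooth muscle markers was 2902 and 2144 in VTA WT and 2703 and 673 in VTA KO. That of 10 ciliated and ependymal markers was 3926 and 3508 in VTA WT and 2435 and 1386 in VTA KO, and that of 5 dividing-cell markers was 378 and 385 and then 392 and 230. Thus VTA KO replicate 2 was below both VTA WT arrays in these lists, while replicate 1, with the low accessory subunits, was close to VTA WT in the pericyte and dividing-cell lists. The summed signal of 10 general neuron markers was 17925 and 17350 in VTA WT and 18370 and 19035 in VTA KO, and that of 9 dopaminergic markers 7270 and 7201 and then 5820 and 6009. The part of these differences in the levels of the members was not tested.

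VTA KO against VTA WT asks how loss of Pitx3 affects VTA neurons. The log2 difference was below 0 for 93 of 111 member probesets (83.8%), against 54.3% of all tested probesets, while 45.7% of all were above 0. Its median over 86 genes was -0.15, where the median of all tested probesets was -0.02. By complex the median was -0.15 for complex I (30 of 34 genes below 0), -0.05 for complex II (3 of 4), -0.26 for complex III (7 of 8), -0.22 for complex IV (13 of 16), -0.13 for ATP synthase (15 of 17) and -0.13 for the assembly factors (7 of 7). Both VTA KO arrays were below both VTA WT arrays for 35 of 111 member probesets (31.5%, background 20.7%), and above for 2 (1.8%, background 17.5%). At an unadjusted p under 0.05, 8 probesets were lower (7.21%, background 5.51%) and 0 higher (background 4.73%).

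These medians rested on VTA KO replicate 1. Without that array the median was 0.00 over all members, 0.04 for complex I, -0.03 for complex III, -0.05 for complex IV, 0.01 for ATP synthase and 0.15 for the assembly factors. Without VTA KO replicate 2 it was -0.34 over all members and -0.40 for complex I. Calls from that fit are not given, since it assumes the lone VTA KO array to vary like the other groups. Complex II gave -0.09 and -0.03 in the same order. The arrays of this group thus gave different values for every class except complex II.

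Both VTA KO arrays were below both VTA WT arrays for 26 of 86 genes (30.2%), a position held by 20.7% of all tested probesets. Several of these genes are described here, and their low values on both arrays follow from that choice. Uqcrfs1, the Rieske iron-sulfur protein of complex III, was at 9.22 and 9.43 in VTA WT and at 8.78 and 9.03 in VTA KO. Its log2 difference was -0.42 (SE 0.134, adjusted p = 0.365 from limma). Ndufaf4, an assembly factor of complex I, was at 8.95 and 9.19 in VTA WT and 8.49 and 8.77 in VTA KO (-0.44, SE 0.142, adjusted p = 0.365 from limma). Cox6b2, the testis isoform of a subunit that faces the intermembrane space, was at 7.38 and 7.61 in VTA WT and 6.89 and 7.00 in VTA KO (-0.55, SE 0.161, adjusted p = 0.331 from limma). None of these genes passed the test. Cox7a2l, counted here with the common subunits of complex IV, had a difference of -0.48 (SE 0.183, adjusted p = 0.448 from limma), and was at 10.13 and 10.12 in VTA WT against 9.36 and 9.92 in VTA KO. Its other probeset was not low on both arrays, at 9.05 and 9.02 in VTA WT and 8.55 and 9.05 in VTA KO. There the difference was -0.24 (SE 0.172, adjusted p = 0.689 from limma). Ndufab1, the mitochondrial acyl carrier protein, was at 8.59 and 8.62 in VTA WT and 7.70 and 8.51 in VTA KO (-0.50, SE 0.249, adjusted p = 0.563 from limma). The largest positive difference was that of Atp5d, the delta subunit of the F1 head, at 0.15 (SE 0.123, adjusted p = 0.73 from limma), from 8.27 and 8.35 to 8.42 and 8.50.

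SNc KO against VTA KO, which uses those same VTA KO arrays, gave the widest median over all members. The log2 difference was above 0 for 105 of 111 member probesets (94.6%, background 54.8%, with 45.2% below), with a median over genes of 0.26 against 0.04 over all tested probesets. Complex III had a median of 0.48, complex I of 0.30, the assembly factors of 0.28, complex IV of 0.23, ATP synthase of 0.21 and complex II of 0.18. Both SNc KO arrays were above both VTA KO arrays for 53 member probesets (47.7%, background 26.8%) and below for 1 (0.901%, background 21.8%). At an unadjusted p under 0.05, 13 were higher (11.7%, background 9.73%) and 0 lower (background 7.81%). Without VTA KO replicate 1 the median over members was 0.05, and without VTA KO replicate 2 it was 0.41.

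Uqcrc1, a core protein of complex III, had the lowest adjusted p of any member here. It was at 8.47 and 8.42 in SNc KO and at 7.94 and 8.00 in VTA KO, a log2 difference of 0.47 (SE 0.105, adjusted p = 0.156 from limma), with SNc WT at 8.25 and 8.34 and VTA WT at 8.20 and 8.08. Its VTA KO arrays differed by 0.06, in contrast to most members. Uqcrfs1 was at 9.37 and 9.46 in SNc KO, a difference of 0.51 (SE 0.134, adjusted p = 0.181 from limma). Ndufa8, an accessory subunit of complex I with paired cysteine motifs, was at 8.60 and 8.58 in SNc KO and 7.99 and 8.19 in VTA KO (0.50, SE 0.129, adjusted p = 0.178 from limma). The widest difference was that of Ndufa6, at 0.67 (SE 0.331, adjusted p = 0.337 from limma). That of Uqcr10 was 0.61 and that of Ndufb6 0.57, and all of these 3 were 0.19 or less without VTA KO replicate 1. Ndufa3, Cox4i2 and Cox6a2 had the most negative differences, at -0.07, -0.11 and -0.04.

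**Figure D3:**
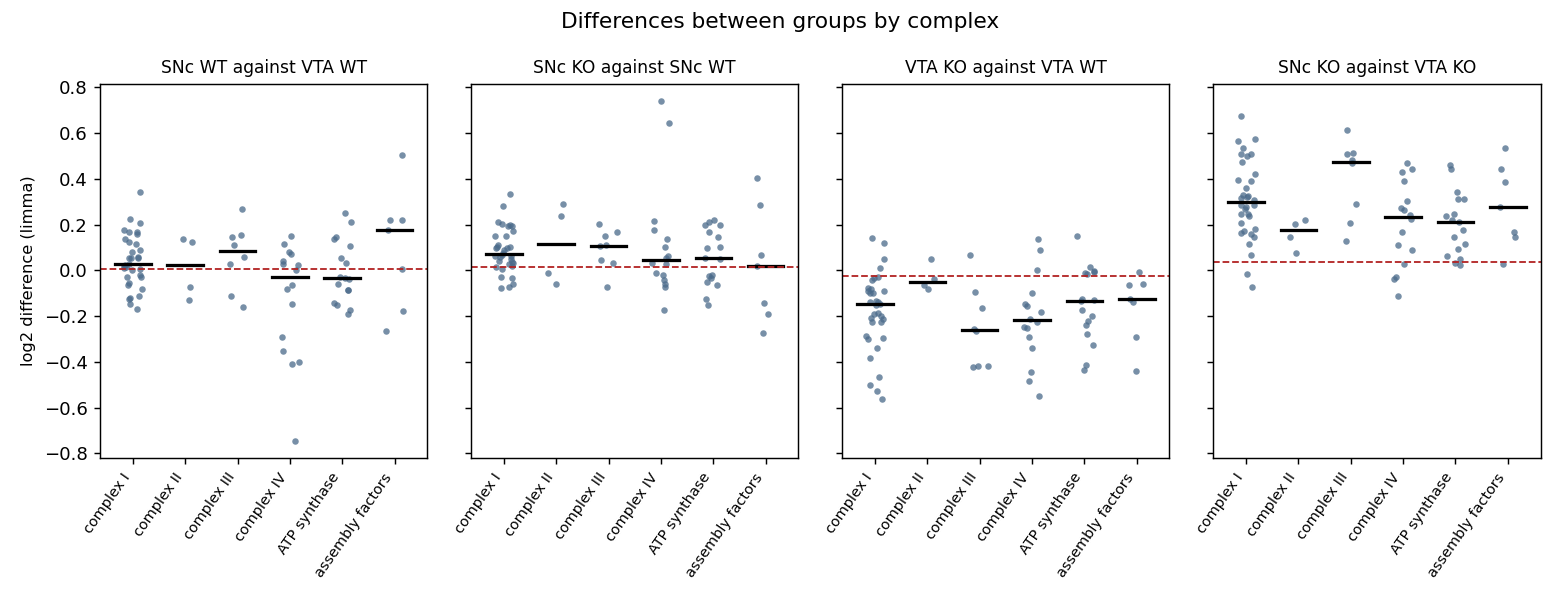
Each point is the log2 difference of 1 gene in the comparison named above the panel, black bars are medians by complex, and the red dashed line is the median of all tested probesets. In VTA KO against VTA WT the bars lie between -0.26 and -0.05, and in SNc KO against VTA KO between 0.18 and 0.48, both with VTA KO replicate 1 included.

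SNc KO against SNc WT compares the dorsal SNc neurons that remain with the whole SNc population. The log2 difference was above 0 for 74 of 111 member probesets (66.7%, background 52.8%, with 47.2% below), and its median over genes was 0.06, against 0.01 over all tested probesets. Medians were 0.07 for complex I (29 of 34 genes above 0), 0.11 for complex II, 0.11 for complex III, 0.05 for complex IV, 0.06 for ATP synthase and 0.02 for the assembly factors. Both SNc KO arrays were above both SNc WT arrays for 41 member probesets (36.9%, background 24%) and below for 9 (8.11%, background 20%). The median differences were small in size. For scale, the median SD of members between arrays was 0.0727 in SNc WT and 0.0697 in SNc KO. Without SNc WT replicate 1 the median over members was 0.02. Without SNc KO replicate 2 the median was -0.01 for complex III, -0.01 for complex IV and -0.09 for the assembly factors. At an unadjusted p under 0.05, 4 were higher (3.6%, background 4.82%) and 0 lower (background 3.8%).

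Those 4 were Cox7a1 and Ndufa4l2, described below, Ndufaf7 and Ndufa8. Ndufaf7, a methyltransferase that acts on a core subunit during assembly of complex I, was at 7.87 and 8.05 in SNc WT and 8.30 and 8.43 in SNc KO, with VTA WT at 8.21 and 8.25 and VTA KO at 8.14 and 8.04. SNc WT thus lay lowest, by 0.40 against SNc KO (SE 0.116, adjusted p = 0.405 from limma). Ndufa8 was at 8.13 and 8.38 in SNc WT, 0.33 below SNc KO (SE 0.129, adjusted p = 0.545 from limma). The largest negative differences were in Ndufaf4 (-0.27, adjusted p = 0.682 from limma), from 9.34 and 9.23 to 9.01 and 9.02, Ndufaf1 (-0.19) and Cox6b2 (-0.17). In complex II, the membrane anchors Sdhc and Sdhd had differences of 0.29 and 0.24, and the catalytic Sdha and Sdhb of -0.06 and -0.01, all without passing the test (adjusted p from 0.581 to 0.991, limma).

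SNc WT against VTA WT showed little difference over the members as a whole. The log2 difference was above 0 for 63 of 111 member probesets (56.8%, background 51%, with 49% below), with a median over genes of 0.02 against 0.01 over all tested probesets. The sign of this median depended on scaling: under quantile normalization it was -0.06, with 28 of 86 genes above 0 in place of 51. With array medians subtracted it was 0.13, with 66 of 86 above 0, where all tested probesets had 0.12. When single arrays were left out it ranged from -0.03 (without SNc WT replicate 2) to 0.05 (without SNc WT replicate 1). SNc WT arrays lay above both VTA WT arrays for 29 member probesets (26.1%, background 29.6%) and below for 26 (23.4%, background 28.7%). At an unadjusted p under 0.05, 2 were higher (1.8%, background 8.59%) and 3 lower (2.7%, background 10.2%). The 2 were Ndufs8, a core subunit with iron-sulfur clusters, and Ndufaf1, a factor of the complex that assembles the membrane arm. Ndufs8 was at 8.16 and 8.14 in SNc WT and 8.19 and 8.29 in SNc KO, and at 7.74 and 7.87 in VTA WT and 7.91 and 7.95 in VTA KO. All SNc arrays were thus above all VTA arrays, by 0.35 in WT (SE 0.105, adjusted p = 0.178 from limma) and 0.31 in KO (SE 0.105, adjusted p = 0.226 from limma). Ndufaf1 was at 8.74 and 8.91 in SNc WT, 8.52 and 8.75 in SNc KO, 8.50 and 8.14 in VTA WT and 8.20 and 8.19 in VTA KO. Its difference was 0.51 in WT (SE 0.159, adjusted p = 0.186 from limma) and 0.44 in KO (SE 0.159, adjusted p = 0.243 from limma). Uqcrb followed at 0.27 (SE 0.151, adjusted p = 0.379 from limma).

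The 3 below 0 were all tissue-restricted isoforms of complex IV, which replace a common subunit in muscle, lung, testis or under low oxygen. Of the 5 isoforms tested, 3 (Cox7a1, Ndufa4l2 and Cox4i2) were below a linear signal of 60 (5.91 in log2) in SNc WT, with means of 5.20, 5.40 and 5.85. They entered the test only through groups where they were higher, so that a difference from SNc WT was built into their selection, and its size is measured against a level under the filter. Cox7a1, the heart and skeletal muscle isoform, was at 5.38 and 5.02 in SNc WT, 5.66 and 6.23 in SNc KO, 5.93 and 5.95 in VTA WT and 5.29 and 5.71 in VTA KO. SNc WT was lowest, with a difference of -0.74 against VTA WT (SE 0.241, adjusted p = 0.193 from limma) and 0.74 for SNc KO against SNc WT (SE 0.241, adjusted p = 0.458 from limma). In VTA the knockout difference had the other sign, at -0.45 (SE 0.241, adjusted p = 0.594 from limma), and the knockout effects differed by 1.19 (SE 0.341, adjusted p = 0.417 from limma). Its common counterpart Cox7a2 was at 10.14 and 10.45 in SNc WT and 10.36 and 10.43 in SNc KO, a difference of 0.10 (SE 0.209, adjusted p = 0.951 from limma). Only 3 of 8 arrays brought Cox7a1 over a linear signal of 60.

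Ndufa4l2, induced by low oxygen and known from brain pericytes, was at 5.50 and 5.30 in SNc WT, 6.10 and 5.99 in SNc KO, 6.05 and 5.55 in VTA WT and 5.76 and 6.12 in VTA KO. It exceeded 60 on 4 of 8 arrays and on neither SNc WT array. The log2 difference of SNc KO against SNc WT was 0.65 (SE 0.206, adjusted p = 0.449 from limma), and its paralog Ndufa4 differed by 0.03. Cox4i2, known from lung and also from pericytes, was at 5.86 and 5.83 in SNc WT, 5.98 and 5.99 in SNc KO, 6.23 and 6.17 in VTA WT and 6.10 and 6.10 in VTA KO. Its order of groups had no overlap between neighbours, and its difference for SNc WT against VTA WT was -0.35 (SE 0.0955, adjusted p = 0.151 from limma). Cox6a2, another muscle isoform, was at 6.55 and 6.56 in SNc WT, 6.69 and 6.86 in SNc KO, 6.97 and 6.96 in VTA WT and 6.86 and 6.76 in VTA KO (-0.41, SE 0.11, adjusted p = 0.148 from limma for the WT regions). SNc WT was again the lowest group, and the KO groups overlapped. The common counterparts Cox4i1 and Cox6a1 had differences of -0.08 and 0.15 between the WT regions.

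Pericyte and smooth muscle markers were also low in SNc WT. Their summed linear signal was 933 and 870 in SNc WT, 2379 and 2151 in SNc KO, 2902 and 2144 in VTA WT and 2703 and 673 in VTA KO. Linear sums weigh the highest marker most, which by group mean was Rgs5. It was at 8.27 and 7.83, 10.16 and 9.98, 10.40 and 9.96, and 10.29 and 6.22 in the same order of groups. Of the 12 markers, 4 and 6 reached a linear signal of 60 on the SNc WT arrays, 9 and 9 in SNc KO, 10 and 8 in VTA WT and 11 and 5 in VTA KO. In SNc WT against VTA WT 0 of the 11 tested (Des was not) were called. Between the VTA KO arrays, where the sums were 2703 and 673, Cox7a1 was at 5.29 and 5.71, Ndufa4l2 at 5.76 and 6.12, Cox4i2 at 6.10 and 6.10, Cox6a2 at 6.86 and 6.76 and Cox6b2 at 6.89 and 7.00. Ciliated and ependymal markers had summed signals of 564 to 602 in SNc WT, 634 to 672 in SNc KO, 3508 to 3926 in VTA WT and 1386 to 2435 in VTA KO. Those of astrocytes and radial glia were 2171 to 2215, 2455 to 2475, 3333 to 3567 and 1759 to 2718 in the same order of groups. The part of these cells in the isoform levels was not tested.

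**Figure D4:**
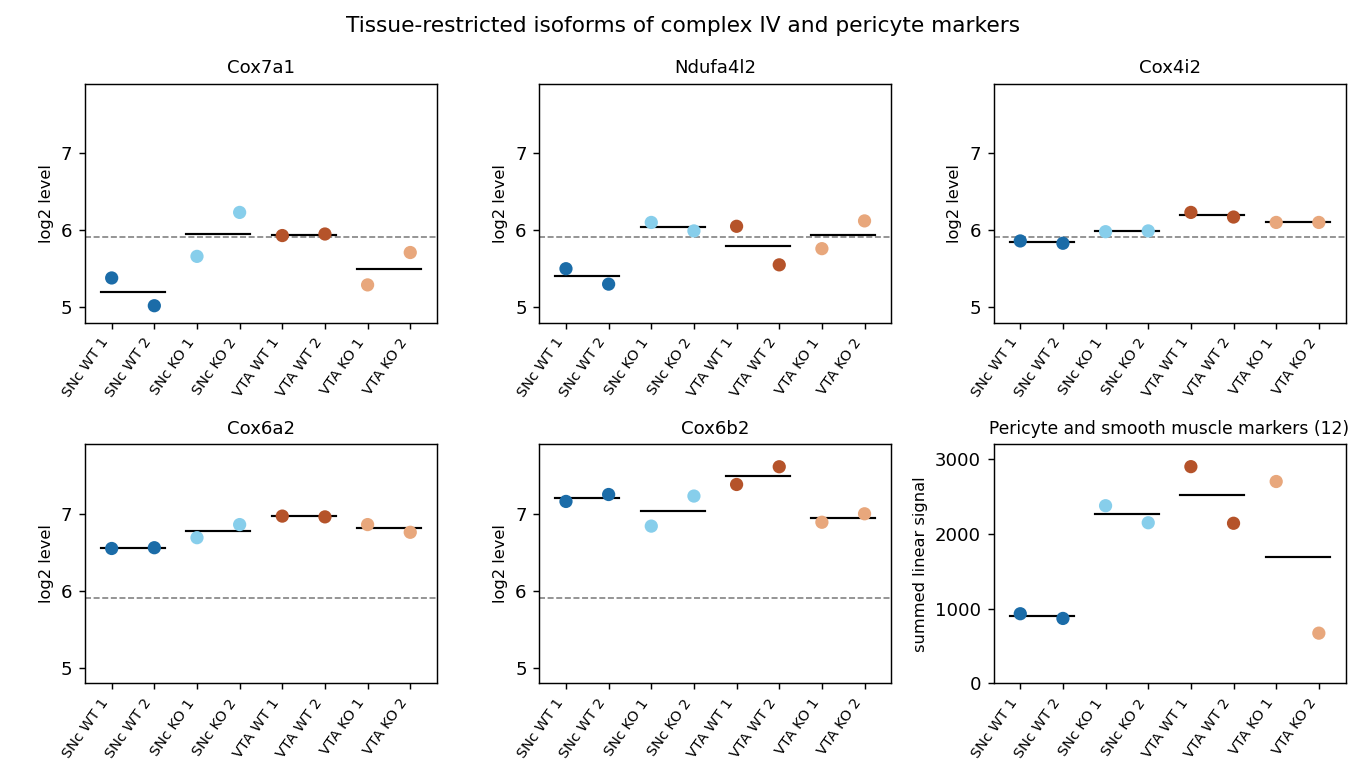
Points are the log2 levels of 5 tissue-restricted isoforms of complex IV on each array, with the summed linear signal of 12 pericyte and smooth muscle markers in the last panel, black bars at group means and a dashed line at a linear signal of 60. Cox7a1, Ndufa4l2 and Cox4i2 lie under the dashed line on both SNc WT arrays, Cox6a2 and Cox6b2 lie above it on all arrays, and the marker sums of SNc WT are 933 and 870.

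The interaction, the SNc knockout effect minus the VTA one, was above 0 for 96 of 111 member probesets (86.5%, background 55%, with 45% below), with a median over genes of 0.24 against 0.04. At an unadjusted p under 0.05, 3 were higher (2.7%, background 5.53%) and 0 lower (background 4.36%). These were Cox7a1, Ndufa8 (0.62, SE 0.182, adjusted p = 0.423 from limma) and Ndufaf7 (0.54, SE 0.164, adjusted p = 0.429 from limma). Cox7a1 was under the signal filter in SNc WT and VTA KO (means of 5.20 and 5.50). It entered the test only through SNc KO and VTA WT, the groups that raise this difference. Without VTA KO replicate 1 the median was 0.06. The c ring genes of ATP synthase, which encode the same mature protein, differed in their gap between the VTA KO arrays. Atp5g2 was at 8.37 and 8.91 in VTA KO after 9.02 and 9.08 in VTA WT, whereas Atp5g1 was at 8.90 and 9.01 after 9.04 and 9.14, and Atp5g3 at 10.53 and 10.66 after 10.86 and 10.81. None of the 3 passed the test.

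Other genes of the pathway were read from lists. Of the subunits encoded by mitochondrial DNA, ND3 and COX2 have probesets with a single symbol. COX2, a catalytic subunit of complex IV, was at 11.91 and 11.94 in SNc WT, 11.75 and 11.77 in SNc KO, 11.82 and 11.87 in VTA WT and 12.05 and 12.13 in VTA KO. COX2 was thus highest on both VTA KO arrays. ND3, of complex I, did not share this order, at 11.12 and 11.00, 10.92 and 11.01, 11.28 and 11.24, and 11.30 and 11.16 in the same groups. Among 35 assembly factors outside the name rule, the median difference was -0.10 for VTA KO against VTA WT and 0.33 for SNc KO against VTA KO (34 of 35 above 0), and the gap between the VTA KO arrays was -0.22. The 15 genes of the tricarboxylic acid cycle had medians of 0.00 and 0.09 in these comparisons and a gap of -0.03, and the 13 of glycolysis -0.00, 0.18 and -0.04. The 14 biogenesis regulators had a gap of -0.01. In all of these lists 0 genes were called in each of the 5 comparisons. Among the regulators, Ppargc1a, the coactivator that drives mitochondrial biogenesis, was at 8.94 and 8.24 in VTA KO, Nrf1 at 5.93 and 6.31, Gabpa at 8.45 and 8.05 and Tfam at 6.45 and 6.83, so that the arrays differed in both directions. The 7 carriers and subunits outside the name rule had a gap of -0.15, with Cycs, cytochrome c, at 10.49 and 10.96 in VTA KO.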

How the data were processed

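Expression in sorted mDA neurons was measured with Affymetrix Mouse Gene 1.0 ST arrays in duplicate for each region and genotype. The deposited log2 values were summarised and normalized by the authors with RMA, without centring per gene (RMA Express, whose version is not given in the sources used here). The methods also name a normalization with the LPE algorithm in FlexArray, and whether the deposited values include it was not stated. Symbols came from the platform annotation. Of the 35512 probesets, 6 that pair a matching name with other symbols were left out. The limma package (3.58.1, run under R 4.3.3) was fitted with 4 group means to all 8 arrays. Tests covered the 22112 probesets whose mean signal, unlogged, reached 60 in any group, with Benjamini-Hochberg adjustment within each of 5 comparisons. The fit had 4 residual and 2.4 prior degrees of freedom, and was tested on simulated data. Genes with several probesets (17) were represented by that of highest mean in medians and named values, and by all in probeset counts. A median was set beside that of all tested probesets, without a test. The number of arrays limits the precision.

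Named genes were drawn from the 3 largest positive and negative differences in each comparison, the isoform pairs and the core subunits. Not all of these are named. Others named at an unadjusted p under 0.05 or beside a result were chosen after their values were seen. The members, lists and rules were chosen with earlier results of these data known. Alternatives covered the signal filter, normalization, arrays fitted, a replicate block, a variance trend, array weights, the thresholds of the study and leaving out each array. Promoters came from RefSeq tables of GRCm38.p6, and figures were drawn in matplotlib.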

Additional observations from a re-analysis of the deposited data

How the results depend on the processing

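No member probeset was called under any other setting with 2 arrays in each group, except at the thresholds of the study. Those were an unadjusted p at most 0.05, fold at least 1.5 and signal at least 60. The p-values put to them here were limma's, and the study's own test was not rerun. These thresholds gave 1 member in SNc WT against VTA WT (Cox7a1, 0.901% of members against 6.62% of all probesets past the same thresholds), 2 in SNc KO against SNc WT (Ndufa4l2 and Cox7a1, 1.8% against 3.6%), 1 in VTA KO against VTA WT (Ndufab1, by its second probeset, 0.901% against 4.35%) and 2 for the difference of the knockout effects (Ndufa8 and Cox7a1, 1.8% against 6.74%). Cox7a1 and Ndufa4l2 lay under the signal filter in SNc WT (means of 5.20 and 5.40), and Cox7a1 also in VTA KO (5.50). They entered only through groups where they were higher, so these differences were built into their selection. Over all probesets, calls in SNc WT against VTA WT ranged from 62 to 847 beside 97 in fits with 2 arrays in each group. Deviations of equally numbered replicates correlated weakly between groups (0.00577 to 0.098). Most members were nevertheless lower on replicate 1 of each group other than VTA WT, and pairing was not tested over the members alone. With a replicate block 0 members were called, with 71, 3, 0, 0 and 0 calls over all probesets beside 97, 33, 2, 33 and 0. Subtracting array medians moved the median of all tested probesets from 0.01 to 0.12 in SNc WT against VTA WT. There it gave 0.13 for complex II and 0.07 for ATP synthase, while quantile normalization gave -0.03 for complex II. In SNc KO against VTA KO, complex II was 0.06 with quantile normalization and 0.25 with array medians subtracted, and Ndufa3 and Cox6a2 turned to 0.00 and 0.04 under the latter. Of 470 values under alternatives other than leaving out an array, 459 were labelled the same, 9 moved and 2 reversed. With 1 array left out, 504 of 560 were labelled the same, 39 moved, 5 stronger and 12 reversed. The label allowed small shifts, so a median near 0 could change sign and still be labelled the same. The cause of these shifts was not tested.

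When 1 array was left out at a time, member calls ranged from 0 to 2 in VTA KO against VTA WT and from 0 to 18 in SNc KO against VTA KO, both highest without VTA KO replicate 2, where 0.306% and 6.17% of all probesets were called. In VTA KO against VTA WT the median ranged from -0.34 to 0.00 over all members, -0.40 to 0.04 for complex I, -0.50 to -0.03 for complex III, -0.39 to -0.05 for complex IV, -0.28 to 0.01 for ATP synthase and -0.29 to 0.15 for the assembly factors. In SNc KO against VTA KO it ranged from 0.05 to 0.41 over all members, 0.08 to 0.58 for complex I, 0.12 to 0.20 for complex II, 0.14 to 0.57 for complex III, 0.04 to 0.39 for complex IV, 0.02 to 0.35 for ATP synthase and 0.02 to 0.40 for the assembly factors. For the difference of the knockout effects the ranges were 0.06 to 0.42 over all members, 0.05 to 0.50 for complex I, 0.09 to 0.21 for complex II, 0.17 to 0.57 for complex III, 0.18 to 0.44 for complex IV, 0.04 to 0.33 for ATP synthase and -0.06 to 0.39 for the assembly factors. In SNc KO against SNc WT the ranges were 0.02 to 0.12 over all members, 0.04 to 0.12 for complex I and 0.04 to 0.18 for complex II. They reached 0 or below in the other classes. These were -0.01 to 0.19 for complex III, -0.01 to 0.08 for complex IV, 0 to 0.14 for ATP synthase and -0.09 to 0.06 for the assembly factors. Single genes that changed sign were Cox6b2 in SNc KO against SNc WT (-0.37 to 0.02), Ndufa6 (-1.13 to 0.00), Ndufb6 (-1.08 to 0.03), Ndufa4l2 (-0.11 to 0.38) and Ndufa3 (-0.17 to 0.46) in VTA KO against VTA WT, Ndufa3 (-0.39 to 0.24) and Cox6a2 (-0.12 to 0.05) in SNc KO against VTA KO, and Uqcrb (-0.29 to 0.01) and Cox5a (-0.25 to 0.04) for the difference of the knockout effects.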

Other observations

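Lists of other protein complexes, chosen after the values were seen, were read on the VTA KO arrays in the same way. The median of replicate 1 minus replicate 2 was -0.44 over 76 mitochondrial ribosomal proteins, -0.36 over 54 cytosolic ribosomal proteins and -0.27 over 37 proteasome subunits, against 0.00 over all tested probesets. The summed linear signal of the 77 mitochondrial ribosomal genes measured ranged from 16052 to 23215 between the VTA KO arrays and from 20291 to 20392 between the VTA WT arrays. For SNc KO against VTA KO, the difference was above 0 for 69 of 76 mitochondrial and 49 of 54 cytosolic ribosomal proteins, and 0 of either list were called (13 and 7 had an unadjusted p from limma under 0.05, all higher). Over all tested probesets 54.8% were above 0 and 9.73% were higher at that p. Low levels on VTA KO replicate 1 were thus also measured outside oxidative phosphorylation.

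The remaining marker lists gave the following gaps between the VTA KO arrays: 0.49 over 6 astrocyte and radial glia markers, 0.24 over 2 endothelial, 0.18 over 3 microglial, 0.12 over 6 oligodendrocyte and 0.05 over 7 muscle markers. Between the WT regions, the log2 differences of the 7 muscle markers had a median of -0.03, where Cox7a1 and Cox6a2 had -0.74 and -0.41. Tnnt3 was at -0.50 and Mb at -0.40, but the rest did not share this. Their means in SNc WT and VTA WT were 6.31 and 6.13 for Actc1, 6.80 and 6.75 for Acta1, and 5.74 and 5.71 for Myh7. Tnnt2 was at 7.02 and 7.05, and Ckm at 6.59 and 6.63. The single red blood cell gene measured (Alas2) was not tested.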
